A study of Homo sapiens with 2 samples.

Results

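The genes described here handle zinc. They are the SLC30A and SLC39A zinc transporters, the metallothioneins MT1, MT2A and MT3, and the transcription factor MTF1, selected by gene symbol from the 55797 genes of each sample. The symbols matched 36 genes, of which 10 are SLC30A transporters, 14 are SLC39A transporters, 11 are metallothioneins and 1 is MTF1. The symbols alone decided which genes were included, and the set was proposed with earlier results of these data known.

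RNA-seq compared 1 live and 1 processed sample of H1-derived cells at Stage 6, the last stage of a differentiation protocol toward pancreatic endocrine cells. H1 is an established human embryonic stem cell line, both samples went through the same differentiation, and no transgene is named for either. Live cells were unfixed and unsorted, and their RNA was extracted with an RNeasy kit. Processed cells were fixed in 4% paraformaldehyde, permeabilized, stained with antibodies and run through a cell sorter that collected every cell, and their RNA was released with a modified RecoverAll kit, which is made for fixed tissue. The comparison asks which zinc genes had a different measured level after the staining and sorting workflow. Values are FPKM, the fragments of a gene divided by its transcript length and by the size of the library, so levels of different genes are per length. Each FPKM carries a lower and an upper bound in the authors' files, given here in parentheses, and bounds are called separate where those of live and processed cells do not overlap. The bounds describe 1 library, and with 1 sample per group the differences given have neither a replicate check nor a test.

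Cells keep free zinc in the cytosol low with opposing transporter families. SLC30A proteins, also named ZnT, carry zinc out of the cytosol into vesicles, organelles or the medium, and SLC39A proteins, also named ZIP, carry it into the cytosol. Metallothioneins are small cysteine-rich proteins that bind zinc and copper, and MTF1 senses zinc and activates genes whose promoters hold metal response elements, among them metallothionein genes and SLC30A1. In pancreatic beta cells SLC30A8 loads zinc into the granules, where insulin is stored with it.

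The summed FPKM over all genes was 510713 in live and 499398 in processed cells, and 16004 and 15957 genes reached 1 FPKM. The median ratio of processed to live cells was 0.932 over the 14635 genes that reached 1 FPKM in both samples, a shift of -0.10 on the log2 scale. All 5 endocrine, all 4 pancreatic progenitor and all 5 hepatic markers examined reached 1 FPKM in one sample or both, as did all 4 pluripotency and all 4 stromal markers and 1 of 5 macrophage markers. INS, the insulin gene, was at 98.3 FPKM in live and 121 in processed cells, the liver gene AFP at 460 and 550, and the stem cell gene LIN28A at 119 and 88.7. Directions differed within lists, with the endocrine gene CHGB at 6.56 and 3.16 FPKM and the stem cell gene NANOG at 1.27 and 7.34. The cultures were therefore mixed, and in bulk RNA fewer cells of a type and less RNA per cell cannot be told apart.

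Of the 36 zinc genes, 25 reached 1 FPKM in live or in processed cells and are called expressed. They were 7 SLC30A transporters, 11 SLC39A transporters, 6 metallothioneins and MTF1. SLC39A2, MT3, MT1A, MT1B and MT1M were listed at 0 in both samples. The summed FPKM of the 24 transporters was 320 in live and 296 in processed cells, and that of the 11 metallothioneins was 45.4 and 44.1. Within the transporters, the importing SLC39A family held more RNA per length than the exporting SLC30A family in both samples. Its summed FPKM was 257 in live and 235 in processed cells, against 63.1 and 61.2 for SLC30A, which makes a ratio of 4.06 and 3.84.

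SLC39A7, which releases zinc from the endoplasmic reticulum and Golgi into the cytosol, had the highest FPKM of all 36 genes in both samples. In live cells SLC39A1, SLC39A6, SLC39A10 and SLC30A9 followed in that order, and in processed cells SLC39A6 stood above SLC39A1. Among the 24 neighbouring pairs in the order of the 25 expressed genes, bounds did not overlap for 14 pairs in live and 10 in processed cells, so the remaining neighbours did not differ beyond their bounds.

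**Figure D1:**
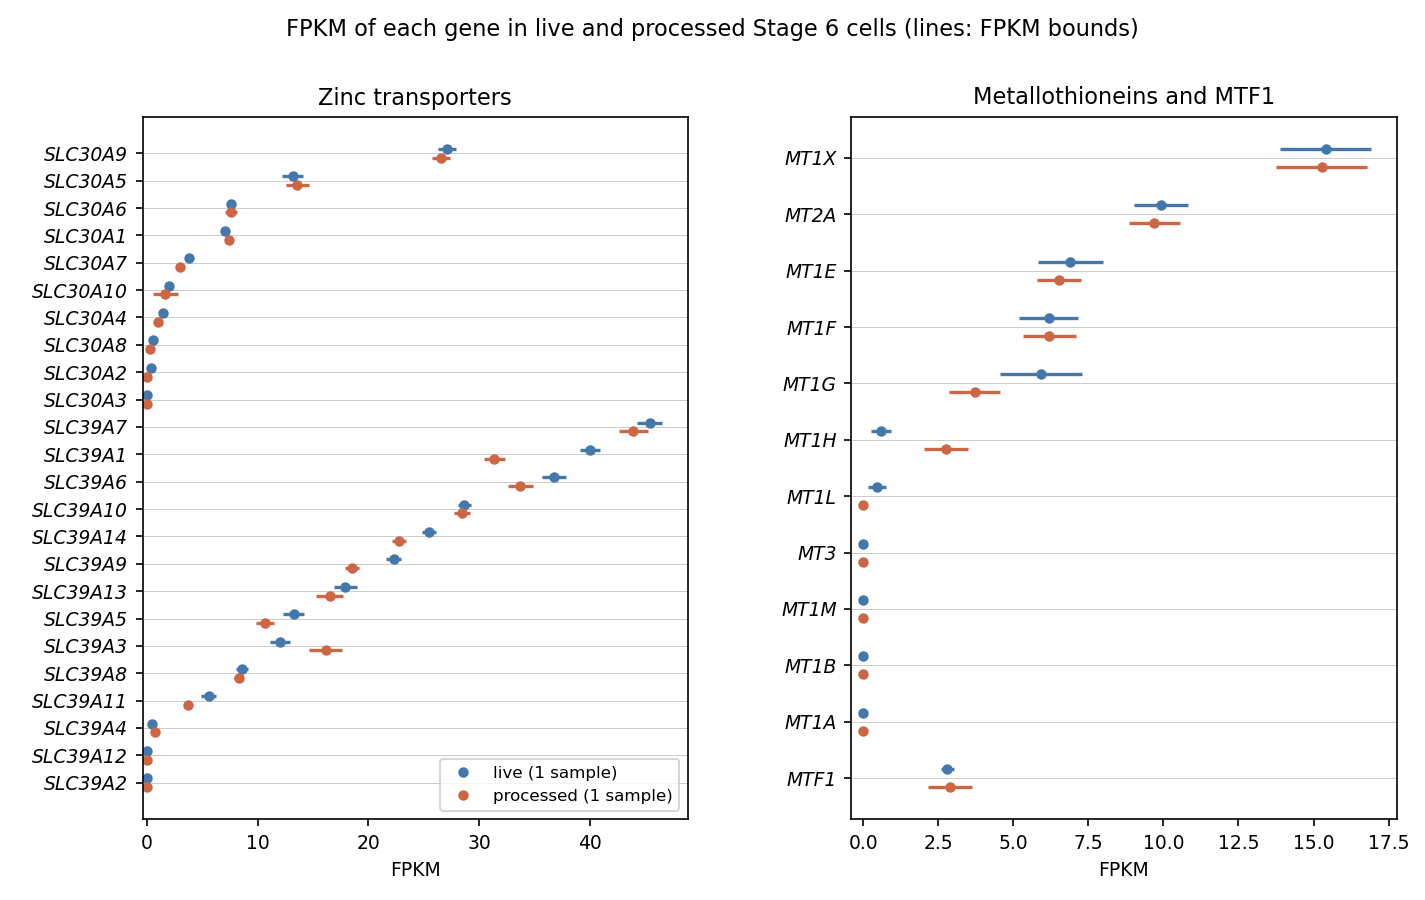
FPKM of each of the 36 zinc genes on a linear axis, transporters on the left and metallothioneins with MTF1 on the right, with 1 point for the live and 1 for the processed sample and lines for the bounds in the authors' files. SLC39A7 has the highest values at 45.4 and 43.9, most pairs of points lie close together, and MT1H lies at 0.591 in live and 2.76 in processed cells.

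The exporters include the plasma membrane transporter that zinc itself is known to induce. SLC30A1, that exporter, is on chromosome 1 (GRCh37 chr1:211744910-211752084, ENSG00000170385.9). Its FPKM was 7.08 (6.85 to 7.31) in live and 7.43 (7.18 to 7.68) in processed cells, with overlapping bounds and a log2 ratio of 0.06. After scaling by the median ratio its bounds were separate with processed cells higher, at a log2 ratio of 0.15. All log2 ratios are of processed over live FPKM with a pseudocount of 1 added to both, so they understate differences of genes with low FPKM.

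The transporters of vesicles, the Golgi and secretory granules ranged from under 1 FPKM to 13.6 FPKM. SLC30A5 and SLC30A6 form a complex that supplies zinc to enzymes of the secretory pathway, and SLC30A7 acts in the same compartment. SLC30A5 was at 13.2 FPKM (12.2 to 14.1) in live and 13.6 (12.5 to 14.7) in processed cells, a log2 ratio of 0.04. SLC30A6 was at 7.62 (7.29 to 7.95) and 7.62 (7.09 to 8.14). Neither partner of the complex had separate bounds. SLC30A7 was at 3.76 FPKM (3.61 to 3.91) in live and 2.97 (2.83 to 3.10) in processed cells, a log2 ratio of -0.26 with separate bounds. SLC30A4, a vesicle transporter known from mammary gland and prostate, was at 1.47 (1.37 to 1.58) and 0.997 (0.898 to 1.10), also with separate bounds.

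SLC30A8, the insulin granule transporter, did not reach 1 FPKM in either sample. It was at 0.516 FPKM (0.364 to 0.667) in live and 0.314 (0.263 to 0.365) in processed cells, and the bounds overlapped at their ends. INS, whose product it serves, had 191 times the FPKM of SLC30A8 in live and 386 times in processed cells. SLC30A2, a transporter of secretory vesicles, was at 0.330 FPKM in live cells and listed at 0 in processed cells. SLC30A3, the transporter of synaptic vesicles, was at 0.0361 FPKM or less in both samples.

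The remaining SLC30A genes act elsewhere. SLC30A9, a mitochondrial zinc exporter, had the highest FPKM of its family, at 27.1 (26.3 to 28.0) in live and 26.6 (25.7 to 27.4) in processed cells, a log2 ratio of -0.03. SLC30A10, which exports manganese rather than zinc, was at 2.03 (1.86 to 2.20) and 1.67 (0.555 to 2.79). The bounds of SLC30A10 in processed cells were wide for a gene at that level, and they overlapped those of live cells.

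Importers of the plasma membrane were the transporter role with the most genes. SLC39A1, a widely expressed uptake transporter, was at 40.0 FPKM (39.1 to 40.9) in live and 31.4 (30.4 to 32.3) in processed cells, a log2 ratio of -0.34. SLC39A6 and SLC39A10 are related importers whose products can form a complex. SLC39A6 was at 36.8 (35.7 to 37.9) and 33.7 (32.6 to 34.9), a log2 ratio of -0.12, and SLC39A10 at 28.7 (28.1 to 29.3) and 28.4 (27.7 to 29.2), a log2 ratio of -0.01. Bounds were separate for SLC39A1 and SLC39A6 and overlapped for SLC39A10. After scaling by the median ratio the bounds of SLC39A6 overlapped and those of SLC39A10 became separate, with processed cells higher.

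SLC39A3, a close relative of SLC39A1, was the transporter with the highest log2 ratio. It was at 12.0 FPKM (11.1 to 12.9) in live and 16.1 (14.7 to 17.6) in processed cells, a log2 ratio of 0.39. It was also the 1 expressed transporter whose bounds were separate with the processed sample higher. The gene AC006538.4 overlaps SLC39A3 over 7845 nt, at 0.0835 FPKM in live and 0.0955 in processed cells. The part of that overlap in the value of SLC39A3 was not tested. SLC39A5, an importer of intestine and pancreas, was at 13.3 (12.3 to 14.2) and 10.7 (9.88 to 11.5) with separate bounds. SLC39A14, which also carries iron and manganese, was at 25.5 and 22.8 FPKM, and its bounds were separate as deposited and overlapped after scaling by the median ratio. SLC39A8, a related carrier of zinc and manganese, was at 8.59 and 8.28 with overlapping bounds. SLC39A4, the intestinal importer mutated in acrodermatitis enteropathica, was at 0.451 and 0.689 FPKM, SLC39A12, known from brain, was at 0.00829 or less, and SLC39A2 was listed at 0.

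Importers into the cytosol from organelles included the gene at the top of the order. SLC39A7 (GRCh37 chr6:33168222-33172216, ENSG00000112473.11) was at 45.4 FPKM (44.3 to 46.5) in live and 43.9 (42.6 to 45.2) in processed cells, a log2 ratio of -0.05 with overlapping bounds. SLC39A9, a Golgi transporter, was at 22.3 (21.6 to 23.0) and 18.5 (17.9 to 19.1), a log2 ratio of -0.25 with separate bounds. SLC39A13, which acts in vesicles of connective tissue cells, was at 17.9 (16.9 to 18.9) and 16.5 (15.3 to 17.7) with overlapping bounds. SLC39A11 had the lowest log2 ratio of all expressed transporters, -0.47, at 5.57 (4.88 to 6.26) and 3.75 (3.40 to 4.10) FPKM. Some of these genes overlap an expressed neighbour on the chromosome, whose fragments an unstranded count could not tell apart at the overlap. The overlaps are SLC39A7 with RXRB over 409 nt, SLC39A9 with ERH over 613 nt, SLC39A1 with CREB3L4 over 179 nt, and SLC39A5 with ANKRD52 over 40 nt. SLC39A11 also holds RP11-766H1.1 over 419 nt, at 8.34 FPKM (0 to 15.3) in live and 7.17 (0 to 13.6) in processed cells with a status of low data. CREB3L4 was at 15.4 FPKM in live and 11.7 in processed cells, a log2 ratio of -0.37 beside the -0.34 of SLC39A1, and its part in that value was not tested.

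The metallothioneins lie together on chromosome 16, where MT4 to MT1X span 119 kb. The 6 expressed ones were MT1X, MT2A, MT1E, MT1F, MT1G and MT1H, and 4 of them had nearly the same FPKM in both samples. MT1X (GRCh37 chr16:56716336-56718108, ENSG00000187193.8) was at 15.4 FPKM (13.9 to 16.9) in live and 15.3 (13.7 to 16.8) in processed cells, a log2 ratio of -0.01. MT2A (chr16:56642111-56643409, ENSG00000125148.6), the form with the broadest expression in human tissue, was at 9.93 (9.03 to 10.8) and 9.70 (8.86 to 10.5), a log2 ratio of -0.03. MT1E (chr16:56659387-56661024, ENSG00000169715.10) was at 6.90 (5.81 to 7.99) and 6.51 (5.77 to 7.25), a log2 ratio of -0.07. MT1F was at 6.18 (5.20 to 7.17) and 6.20 (5.31 to 7.08), a log2 ratio of 0.00. MT1X and MT2A together made up 55.8% of the summed metallothionein FPKM in live and 56.6% in processed cells.

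MT1H and MT1G had the largest log2 ratios, in either direction, of the 25 expressed zinc genes. MT1H (chr16:56703726-56705041, ENSG00000205358.3) was at 0.591 FPKM (0.247 to 0.936) in live and 2.76 (2.04 to 3.49) in processed cells. Its bounds were separate, its log2 ratio was 1.24, and the bounds allow ratios from 0.65 to 1.85 on that scale. MT1G (chr16:56700643-56701977, ENSG00000125144.9) was at 5.92 FPKM (4.55 to 7.29) in live and 3.71 (2.86 to 4.56) in processed cells, a log2 ratio of -0.55, and its bounds met at their ends. The steps between low FPKM values of each library put MT1H at about 13.4 fragments in live and 58.4 in processed cells, and MT1G at about 142 and 82.9, so the live level of MT1H rests on few fragments. Taken as 2 SDs of a fragment number, the bounds imply about 11.8 and 58.3 for MT1H. For MT1G they imply about 74.9 and 76.5, so the estimates differ for that gene. The intervals cover counting and assignment error within a library only.

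**Figure D2:**
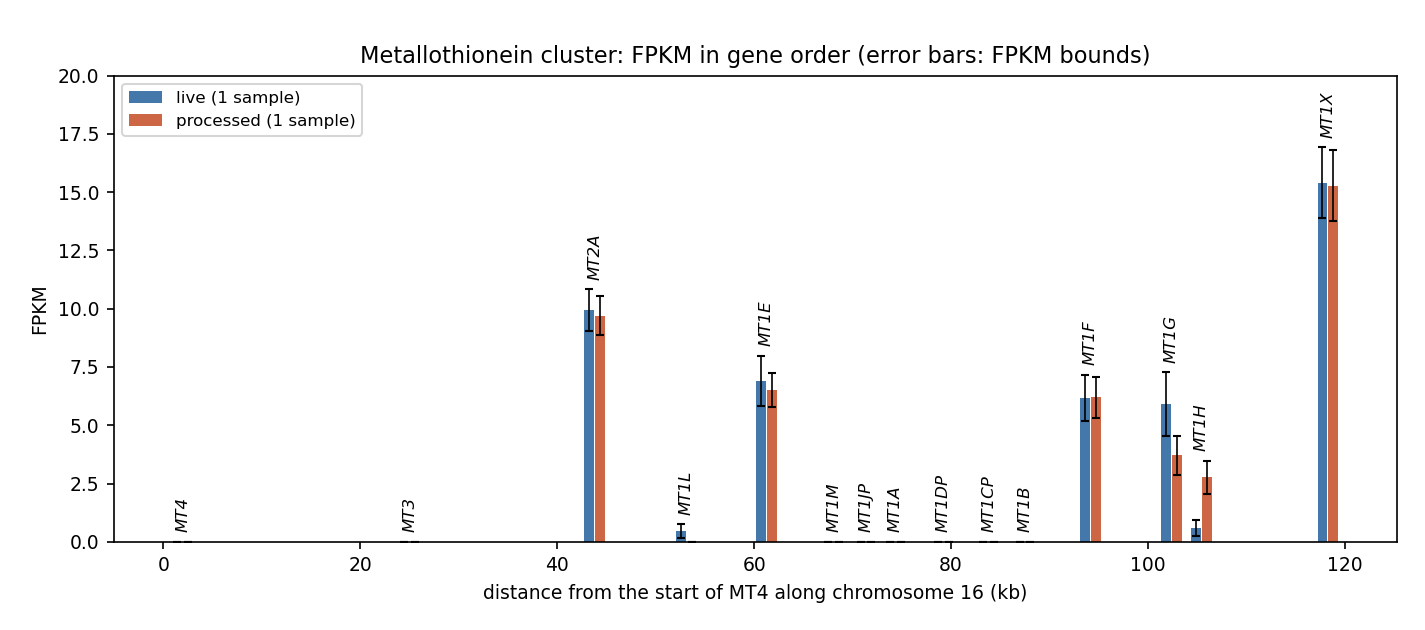
FPKM of the metallothionein genes on a linear axis from 0, in their order along chromosome 16 as distance from the start of MT4 in kb, with bars for the live and the processed sample and error bars for the bounds in the authors' files. MT2A, MT1E, MT1F and MT1X have pairs of bars of nearly equal height, and the neighbours MT1G and MT1H differ in opposite directions, MT1G from 5.92 to 3.71 and MT1H from 0.591 to 2.76.

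MT1G and MT1H are neighbours 1748 nt apart on opposite strands. Their FPKM together was 6.51 in live and 6.47 in processed cells, a log2 ratio of -0.01 for the pair, which was formed after the values were seen. MT1H made up 9.08% of the pair in live and 42.7% in processed cells. Their coding sequences are printed to show how alike the neighbouring genes are. Both are read from GENCODE release 44 on GRCh37 without the stop codon, 3 coding exons each, with capitals at the aligned bases in which the genes differ.
MT1G coding sequence, 186 nt, chr16:56700794-56701905, minus strand: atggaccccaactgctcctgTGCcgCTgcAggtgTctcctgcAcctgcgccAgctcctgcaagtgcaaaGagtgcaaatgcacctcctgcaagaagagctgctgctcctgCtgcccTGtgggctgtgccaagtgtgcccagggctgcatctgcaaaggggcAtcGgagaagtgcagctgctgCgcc
MT1H coding sequence, 183 nt, chr16:56703797-56704898, plus strand: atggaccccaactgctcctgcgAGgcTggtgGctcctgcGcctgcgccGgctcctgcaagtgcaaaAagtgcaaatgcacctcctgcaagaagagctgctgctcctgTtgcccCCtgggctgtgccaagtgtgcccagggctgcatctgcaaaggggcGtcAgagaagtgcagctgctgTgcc
They had the same base at 170 of 186 aligned columns, an identity of 91.4%. Among the 36 pairs that the 9 genes MT1A, MT1B, MT1E, MT1F, MT1G, MT1H, MT1M, MT1X and MT2A form, identity ran from 88.2% to 94.5%, so this pair was not unusual for the family. Pairs with MT3, the metallothionein of brain, had 72.1% to 76.0%.

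Exact copies as long as a read were rarer than this likeness. Of the 318 windows of 80 nt in the canonical MT1H transcript, 30 had an identical copy in a gene elsewhere in the genome, all in a metallothionein copy on chromosome 1 that the authors' annotation names MT1P2 and that was listed at 0 in both samples. Of the 331 windows in MT1G, 17 had one, in MT1X and in the pseudogene MT1XP1, and no window was shared between MT1G and MT1H. MT1X had 22 of 325, shared with MT1G and MT1XP1, MT1E had 6 of 667, and the other metallothioneins had 0. These counts leave out genes that overlap the metallothionein itself, with which MT1L shared 107 of 107 windows, MT1X 87 and MT1B 42. MT1XP1 (chr1:16567708-16567893) was at 7.53 FPKM (4.08 to 11.0) in live cells and listed at 0 in processed cells. Of the 9 genes in the list of MT4 and metallothionein pseudogenes, it was the 1 that reached 1 FPKM, with 7 listed at 0 in live and 8 in processed cells. With these 9 genes added, the log2 ratio of the summed metallothionein FPKM was -0.25 in place of -0.04. Most of what they added came from 1 gene, since MT1XP1 held 7.53 of their summed 7.96 FPKM in live cells. The part of fragment assignment in any of these values was not tested. MT1L, which later annotation holds as a pseudogene, was at 0.461 FPKM in live cells and listed at 0 in processed cells.

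MTF1 itself was at 2.80 FPKM (2.60 to 3.01) in live and 2.89 (2.16 to 3.62) in processed cells, a log2 ratio of 0.03 with overlapping bounds. The promoters of MT2A, MT1X and MT1H and of SLC30A1, a known MTF1 target, are printed with matches to a short motif marked. They are the 250 bases before the transcription start from RefSeq on GRCh38.p14, and capitals mark matches to TGCACNC or TGCGCNC, the core of the metal response element, on either strand.
MT2A promoter, chr16:56608334-56608583, plus strand: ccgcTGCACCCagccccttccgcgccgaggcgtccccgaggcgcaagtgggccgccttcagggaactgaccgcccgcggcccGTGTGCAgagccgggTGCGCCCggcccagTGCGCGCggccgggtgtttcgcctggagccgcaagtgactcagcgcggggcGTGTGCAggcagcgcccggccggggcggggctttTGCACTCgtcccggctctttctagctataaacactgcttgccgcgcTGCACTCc
MT1X promoter, chr16:56682220-56682469, plus strand: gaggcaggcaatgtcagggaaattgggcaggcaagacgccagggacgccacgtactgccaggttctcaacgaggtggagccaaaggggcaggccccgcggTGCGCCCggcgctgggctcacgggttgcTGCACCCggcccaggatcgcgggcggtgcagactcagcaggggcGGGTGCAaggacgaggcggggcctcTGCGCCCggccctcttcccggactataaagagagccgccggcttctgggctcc
MT1H promoter, chr16:56669564-56669813, plus strand: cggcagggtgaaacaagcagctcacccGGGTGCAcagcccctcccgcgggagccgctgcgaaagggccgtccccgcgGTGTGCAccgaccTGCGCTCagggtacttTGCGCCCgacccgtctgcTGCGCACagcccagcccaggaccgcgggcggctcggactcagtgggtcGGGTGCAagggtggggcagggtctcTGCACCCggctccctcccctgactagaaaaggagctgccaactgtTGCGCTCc
SLC30A1 promoter, chr1:211579162-211579411, minus strand: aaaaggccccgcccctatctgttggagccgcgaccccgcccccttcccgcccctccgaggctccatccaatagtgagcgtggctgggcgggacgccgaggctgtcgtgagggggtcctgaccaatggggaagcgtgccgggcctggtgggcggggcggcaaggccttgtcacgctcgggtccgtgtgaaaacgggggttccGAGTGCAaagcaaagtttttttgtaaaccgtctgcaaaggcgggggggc
MT2A held 7 matches, MT1X held 4, MT1H held 8 and SLC30A1 held 1. A promoter was given for 26 of the 36 genes, among them 4 metallothioneins, all of which held at least 3 matches, including MT1B with 3. Of the 21 transporters given, some with several promoters, 10 held at least 1 match in the promoter with the most matches. SLC30A2 was the 1 that held 3. Among all 35116 promoters of the same length, 24.8% held at least 1 match and 1.58% at least 3. These shares count single promoters and the transporter counts are per gene, so they are not on the same unit. No chromosome was left out of the shares. MTF1 held 0. A match describes letters and is no evidence of a site, and MT1B with 3 matches was listed at 0 in both samples while MT2A with 7 was expressed in both.

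Compared as groups, transporters and metallothioneins both lay near equal levels. The median log2 ratio was -0.12 for the 18 expressed transporters and -0.02 for the 6 expressed metallothioneins, beside -0.09 over all 17326 expressed genes. After scaling by the median ratio it was -0.02 for transporters and 0.07 for metallothioneins. By family it was -0.03 for SLC30A and -0.12 for SLC39A as deposited. The median absolute log2 ratio was 0.14 for transporters and 0.05 for metallothioneins, beside 0.34 over all expressed genes. The sets were not matched for level, with a median live FPKM of 13.2, 6.54 and 8.46 in that order. The log2 ratios of the 6 metallothioneins ran from -0.55 to 1.24.

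MT1H was the 1 of 25 expressed zinc genes past 2-fold with the processed sample higher, and 0 were past 2-fold with it lower. Over all 17326 expressed genes these shares were 6.57% and 6.19%. Among genes whose highest FPKM was from 1 to under 5, the range of MT1H, 11.5% were more than 2-fold higher, and among protein-coding genes with a canonical transcript of at most 600 nt, which include MT1H, 11.6% were. The count was 0 when MT1G and MT1H were summed and counted as 1 gene, a choice made after the values were seen. The log2 ratio of that sum, -0.01, was already known, so the 0 was fixed in advance and tests nothing.

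Bounds were separate for 10 of the 25 genes, against 71.8% of all expressed genes. Of the 10, 9 were transporters, 1 higher and 8 lower in processed cells, and 1 was MT1H, also higher. Among all expressed genes 28.1% had separate bounds with processed cells higher and 43.7% with processed cells lower. The 8 lower ones were SLC30A4, SLC30A7, SLC39A1, SLC39A5, SLC39A6, SLC39A9, SLC39A11 and SLC39A14. Of the 25 genes, 6 were higher and 19 lower in processed cells as deposited, and 14 were higher and 11 lower after scaling by the median ratio, so the direction of small differences depends on the scaling. Over all expressed genes 7232 were higher and 10094 lower as deposited, and 8642 were higher and 8684 lower after scaling. After that scaling 10 zinc genes had separate bounds, 4 higher and 6 lower, beside 6022 higher and 6180 lower over all expressed genes.

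**Figure D3:**
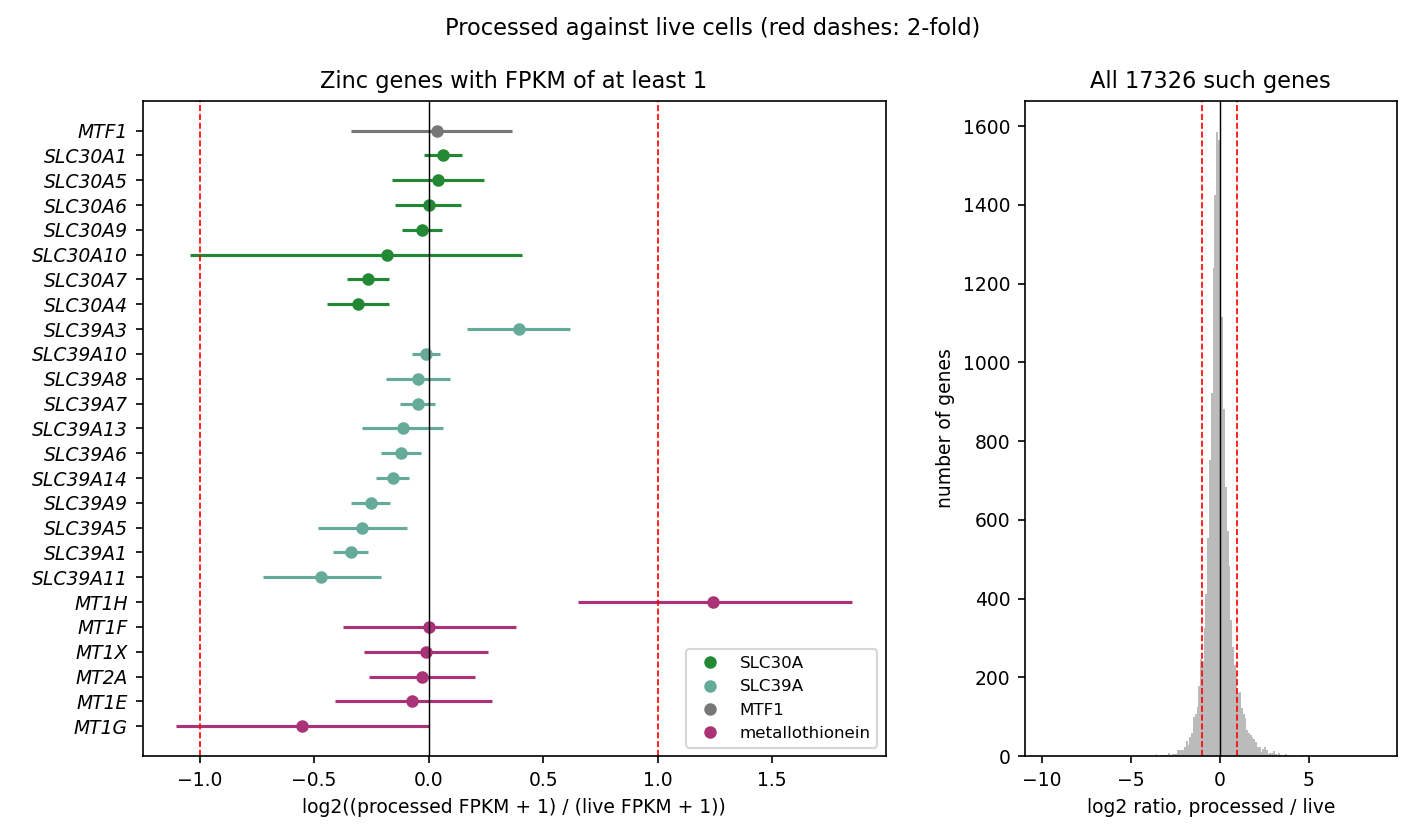
Log2 ratio of processed over live FPKM, with a pseudocount of 1, for the 25 expressed zinc genes on the left, with points coloured by family and lines for the range that the bounds allow, and the histogram of the same ratio over all 17326 expressed genes on the right, with red dashes at 2-fold. MT1H at 1.24 is the 1 point beyond the dashes, and the transporters lie between -0.47 and 0.39.

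Genes of neighbouring metal pathways were read in the same way, against the shares of 6.57% higher and 6.19% lower past 2-fold over all expressed genes. All 10 copper handling genes were expressed and 0 were past 2-fold, with log2 ratios from -0.74 for the copper exporter ATP7A to 0.59 for the mitochondrial copper chaperone SCO2. Of 4 manganese and iron transporters 3 were expressed, and TFRC, the transferrin receptor, was more than 2-fold lower at 14.1 FPKM in live and 6.19 in processed cells. Of 11 genes of oxidant and metal stress, 2 were past 2-fold with the processed sample lower and 0 with it higher. The lower ones were TXNRD1, thioredoxin reductase, at 131 FPKM in live and 32.0 in processed cells, and NQO1, a quinone reductase, at 6.97 and 1.78. HMOX1, which the same stresses and metals induce, was at 3.56 and 5.12. TMEM163, a zinc transporter of synaptic and secretory vesicles outside both families, was at 2.15 and 0.769 FPKM, a log2 ratio of -0.83.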

How the data were processed

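Reads of 80 nt in pairs were mapped by the authors with STAR to GRCh37, and FPKM with bounds were deposited for each gene. The submitters' processing notes name STAR 2.2.0c and Cufflinks 2.0.2. FPKM is already normalized to length and library size. What confidence the bounds stand for is not given in the sources used here. Taken as 2 SDs of a fragment number, the bounds matched the number read from steps in low FPKM to a median ratio of 0.990 over genes with 1 transcript in each sample.

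Zinc genes and gene lists were chosen with earlier results of these data known. Genes were joined by Ensembl identifier, and log2 ratios used a pseudocount of 1. Counts and medians cover expressed genes, those that reached 1 FPKM in either sample. Genes past 2-fold and the 3 highest of each role group in live cells were given with bounds, the other genes by group or where their bounds bore on a count. SLC30A8 and other genes outside that rule were named after their values were seen. Sequences came from GENCODE release 44 on GRCh37, which held all 36 genes, and from RefSeq. Python 3.11.15, numpy 2.4.6, pandas 2.3.3 and biopython 1.88 were used. The log2 ratio and the 2-fold count, and no other step, were tested on data simulated from genes with a higher top FPKM than MT1H.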

Additional observations from a re-analysis of the deposited data

Results flagged for a closer look

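A signal outside the comparisons appeared in 3 genes that overlap a zinc transporter. Each was picked, out of all genes that overlap a zinc gene, because its processed bounds lay above those of live cells, the control here. Over all expressed genes, 28.1% had separate bounds with processed cells higher and 43.7% with processed cells lower. These shares cover genes that reached 1 FPKM, which the 3 picked genes did not, so they are no matched background. RP4-549L20.2, which lies within SLC30A7, was at 0.996 FPKM (0.765 to 1.23) in processed cells and listed at 0 in live cells. CTC-498J12.3, which overlaps SLC30A5, was at 0.278 (0.240 to 0.315) against 0.0793 (0.0654 to 0.0931). RP11-750H9.5, which overlaps SLC39A13, was at 0.0226 (0.0164 to 0.0287), against an upper bound of 7.7e-04 in live cells. HMGN2P46, which overlaps SLC30A4, differed the other way, at 0.299 FPKM (0.177 to 0.420) in live and 0.00453 (0.00275 to 0.00630) in processed cells. CREB3L4, which overlaps SLC39A1, was also lower in processed cells, at 15.4 (14.6 to 16.1) and 11.7 (10.9 to 12.4). So was ANKRD52, which overlaps SLC39A5, at 12.5 (12.2 to 12.8) and 11.2 (10.9 to 11.4). Apart from CREB3L4 and ANKRD52, the genes named here were under 1 FPKM in both samples. For all of them the part of reads from the overlapping transporter was not tested.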

How the results depend on the processing

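No paired analysis was possible because each group has 1 sample, and no replicate could be left out. The number of zinc genes more than 2-fold higher in processed cells was 1 as reported. It became 0 when an FPKM of at least 10 was required, since MT1H lies below that limit. It was also 0 when MT1G and MT1H were summed into 1 gene, an alternative added after seeing the data. The sum of that pair was already known to be near equal, so that 0 was fixed in advance. The number was 1 with a pseudocount of 0.1, scaling by the median ratio, equal FPKM sums, and an FPKM limit of 0.1 or none. Requiring status OK removed none of the 36 genes and tests nothing. The number more than 2-fold lower was 0 under each of these, but a pseudocount of 1 cannot show a gene under 1 FPKM as 2-fold lower. With a pseudocount of 0.1 together with an FPKM limit of 0.1 or none, also added after seeing the data, it was 2, MT1L and SLC30A2, both listed at 0 in processed cells. The log2 ratio of MT1H was 1.24 as reported, 2.05 with a pseudocount of 0.1 and 1.32 after median scaling. The median of metallothioneins minus that of transporters lay between 0.08 and 0.10 under every alternative run, but several of these could barely move it. Scaling applies the same factor to both groups, and leaving out MT1G and MT1H, the lowest and highest, keeps the same metallothionein median. With an FPKM of at least 10 required, the metallothionein median was the value of MT1X alone. Metallothionein transcripts are short, and depth limits these genes. By the steps between low FPKM values, the expressed metallothioneins had about 13.4 to 396 fragments in a library. The expressed transporters had about 644 or more. Taken as 2 SDs, the bounds imply about 8.96 for the transporter SLC30A10 in processed cells, so that estimate gives another order.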

Other observations

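The order of the zinc genes was much alike in both samples. Across the 18 expressed transporters Pearson's r of log2(FPKM + 1) was 0.989 and Spearman's rho 0.990, and across the 6 expressed metallothioneins r was 0.874 and rho 1. These values are across genes of 1 pair of libraries and describe the data only, and the metallothionein value includes MT1G and MT1H.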
